A study of Rattus norvegicus with 2 samples.

Results

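The cells described here are microglia of the fetal rat hippocampus that are rich in transcripts of 6 genes of G2 and mitosis. They were chosen on their own expression. A droplet had to hold at least 200 genes, at most 20% of its unique molecular identifiers (UMIs, each standing for 1 captured transcript) from mitochondrial genes, at least 0.8% from the complement genes C1qa, C1qb and C1qc, and less than 0.15% from the border macrophage genes Mrc1, Pf4, Ms4a7 and Stab1. Of the 9586 gated microglia, 1880 carried at least 3 UMIs of Ccnb1, Cdc20, Cenpf, Birc5, Ube2c and Tpx2 together, and the 940 of these with the higher UMI share of the 6 genes are the members. They were 297 cells of the dexamethasone library and 643 cells of the control library, or 9.81% of gated microglia, among 12670 barcodes in all. The comparison cells were the 6009 gated microglia with 0 UMIs of all 6 genes, 2223 in the dexamethasone and 3786 in the control library.

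The study compared microglia of rat embryos with and without dexamethasone exposure before birth. The hippocampus of male embryos was taken on gestational day 20, microglia were isolated from it by cell sorting, and their polyadenylated RNA was sequenced cell by cell in droplets. The exposed and the control group are 1 library each, and each library is a pool of 7 embryos. They held 4328 and 8342 barcodes with 42611920 and 69940778 UMIs, and shared 5 barcodes, of which 0 were members. The dose, timing and vehicle of the exposure, the rat strain and the sorting markers are not given in the sources used here. Dexamethasone is a synthetic agonist of the glucocorticoid receptor. With 1 library per group there was no replicate, no test was made, and the exposure, the pool of embryos and the library cannot be told apart. Values below are given for the dexamethasone library first and the control library second. They are UMI counts scaled as counts-per-million (CPM) of the summed cells, and bracketed bounds are exact 95% intervals that cover counting error only.

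A cell in G2 has finished copying its DNA, and it enters mitosis when cyclin B activates the kinase Cdk1. Condensins and topoisomerase II then compact the chromosomes, kinetochores attach them to the spindle, and the anaphase-promoting complex with Cdc20 releases the sister chromatids and destroys cyclin B. The spindle midzone finally guides cytokinesis. Microglia of the fetal brain derive from yolk sac precursors and expand by division in place. Many mitotic genes are held silent through G1 by the DREAM complex and switched on late in the cycle by the B-Myb, MuvB and FoxM1 proteins, through a promoter element called the cell cycle genes homology region, often near CCAAT boxes that bind the factor NF-Y.

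Of the promoters of mitotic genes, 7 are shown as picked examples. Ccnb1, Cdc20 and Birc5 were used to choose the members, and Top2a, Prc1 and Aspm were among the genes with the highest ratios. Plk1 belongs to neither group and is a further mitotic gene. Other genes that chose or marked the members are not shown. Each stretch is the 120 bases upstream of the RefSeq transcript start on the GRCr8 assembly, which is not the assembly the counts were made on. Capitals mark TTTGAA as well as the related TTTAAA and the box CCAAT on either strand, and the last sequence, from the lysosomal membrane gene Cd63, is a gene that was lower in members.
Ccnb1 (cyclin B, chr2:33655226-33655345, minus strand): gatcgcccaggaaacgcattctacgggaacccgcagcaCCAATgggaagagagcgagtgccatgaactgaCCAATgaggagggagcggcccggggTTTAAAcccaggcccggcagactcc
Cdc20 (activator of the anaphase-promoting complex, chr5:137255800-137255919, minus strand): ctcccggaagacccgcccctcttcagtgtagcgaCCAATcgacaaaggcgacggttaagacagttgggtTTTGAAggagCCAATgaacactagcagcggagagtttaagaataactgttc
Birc5 (survivin, chr10:103572026-103572145, plus strand): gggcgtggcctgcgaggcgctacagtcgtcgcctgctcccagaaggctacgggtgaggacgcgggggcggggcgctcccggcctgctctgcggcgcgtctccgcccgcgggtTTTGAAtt
Top2a (topoisomerase II alpha, chr10:84473094-84473213, minus strand): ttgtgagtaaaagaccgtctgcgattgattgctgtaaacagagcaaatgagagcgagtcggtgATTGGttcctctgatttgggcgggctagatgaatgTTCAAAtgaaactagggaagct
Prc1 (midzone microtubule bundler, chr1:143659361-143659480, plus strand): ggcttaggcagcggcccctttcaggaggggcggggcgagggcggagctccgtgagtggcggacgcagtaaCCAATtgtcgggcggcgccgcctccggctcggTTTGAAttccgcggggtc
Aspm (spindle pole protein, chr13:53625464-53625583, plus strand): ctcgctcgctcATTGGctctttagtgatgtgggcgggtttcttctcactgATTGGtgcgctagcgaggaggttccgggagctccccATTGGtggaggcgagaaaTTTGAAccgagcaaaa
Plk1 (mitotic kinase, chr1:186147538-186147657, plus strand): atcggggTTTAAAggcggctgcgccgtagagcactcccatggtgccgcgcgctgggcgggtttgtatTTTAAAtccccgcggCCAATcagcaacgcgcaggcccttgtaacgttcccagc
Cd63 (lysosomal tetraspanin, chr7:1922024-1922143, plus strand): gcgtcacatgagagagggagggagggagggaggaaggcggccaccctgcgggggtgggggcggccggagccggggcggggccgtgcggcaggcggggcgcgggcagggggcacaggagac

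In 6 of the 7 mitotic promoters either TTTGAA or else TTTAAA stood together with CCAAT, Birc5 being the exception, and the Cd63 stretch held none of the 3 motifs. Over the 94 mitosis genes of the lists used below that had a RefSeq window, of 115, either TTTGAA or else TTTAAA, on either strand, occurred in these 120 bases in 47.9%, and together with CCAAT in 33.0%. Among all 33469 windows of the same length the shares were 11.9% and 2.48%. Among the 7721 windows of genes compared here they were 6.45% and 1.84%. The DNA replication list, with 37 windows, held 1 such promoter (2.70%) and none together with CCAAT, while CCAAT alone was in 40.5% of them. Of the 359 windows of genes at least 2-fold higher in members, 27.9% held either of these motifs, against 5.84% of the 137 windows of genes at least 2-fold lower. The 7 promoters shown are picked examples, so their share with the motifs does not stand for the mitosis genes. A match describes letters and not binding, and the gene groups follow from the choice of cells.

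The members carried the identity genes of microglia. The CSF1 receptor gene Csf1r stood at 1586 and 1504 CPM in members and at 1760 and 1713 CPM in comparison cells. P2ry12, a purinergic receptor of microglia, stood at 168 and 198 CPM against 179 and 235 CPM. Tmem119 stood at 64.5 and 60.0 CPM against 74.4 and 99.1, and Cx3cr1 at 244 and 338 against 304 and 394. Of 32 homeostatic microglial genes, described below, 7 were lower in members and 0 higher. In single cells, all 6 chosen genes were detected in 61.3% and 57.9% of members and at least 4 of them in 97.3% and 94.2%. DNA content was not measured, so the phase is read from transcripts alone. Members were also read more deeply, with a median of 10636 and 9854 UMIs per cell against 8431 and 7202 in comparison cells, a mean ratio of 1.31. The 940 cells with at least 3 UMIs but a lower share stood at 12151 and 10703. The part of depth in the results was not tested.

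The class is a range cut from a continuous share. The members' share of UMIs from the 6 genes ran from 1580 CPM to 11004 and 12655 CPM, with medians of 3268 and 3582. The last cells inside stood at 1583.02, 1582.49 and 1579.78 CPM and the nearest cells outside at 1578.95, 1569.65 and 1560.28. Within 10% of that cut lay 56 members and 55 other cells. Free RNA in droplets can give such UMIs to cells that do not express a gene. At least 1 UMI of the 6 genes was found in 16.7% of 48 and 12.5% of 144 neuron-like cells, with median depths of 7938 and 4168 UMIs, against 34.4% and 38.9% of gated microglia at 9102 and 7960 UMIs. At least 3 UMIs, the entry condition, were found in 0 of 48 neuron-like cells, which allows a share of up to 6.25%, and in 0.694% of 144, against 18.9% and 20.0% of gated microglia. The same condition was met by 4.61% and 4.55% of border-macrophage-like, 8.89% and 3.70% of granulocyte-like, and 10.7% and 31.8% of globin-rich cells, the last with median depths of 18231 and 21306 UMIs. With cells thinned to an equal number of UMIs, which left out shallower ones, 13.5% and 15.8% of gated microglia met the entry condition. So did 2.94% and 7.63% of globin-rich, 4.76% and 4.35% of granulocyte-like, and 1.40% and 3.37% of border-macrophage-like cells. Of 33 and 74 neuron-like cells 0 met it, and 6.06% and 9.46% held at least 1 UMI, against 25.5% and 30.3% of gated microglia. Whether any of these other cells divide was not tested.

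The 6 chosen genes, given as a description, were led in UMIs by Cenpf, a kinetochore protein of late G2, which made up 38.8% and 43.0% of the members' UMIs of the 6. Its level was 1508 CPM (1468 to 1549) and 1835 CPM (1803 to 1867). Ube2c, the ubiquitin-conjugating enzyme of the anaphase-promoting complex, stood at 701 and 758 CPM. Tpx2, which activates Aurora A on the spindle, stood at 507 and 525 CPM, Birc5 of the chromosomal passenger complex at 451 and 455 CPM, and Ccnb1 at 454 and 407 CPM. Cdc20 stood at 269 and 290 CPM and was the least often detected, in 78.5% and 77.6% of members. Ccnb1 was higher in the dexamethasone library and the other genes of the 6 were lower, Birc5 and Tpx2 by little. The intervals given cover counting error only, not the spread between cells or embryos. The 6 genes also chose the members, by a cut made over both libraries together. The differences between the libraries were not tested and are given as a description only.

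Among 10088 genes with at least 100 UMIs over both cell groups, 476 were at least 2-fold higher in members in both libraries (4.72%) and 186 at least 2-fold lower (1.84%). With all 1880 cells of at least 3 UMIs taken as members, 60 were 2-fold lower. The median gene differed by 0.029 and 0.045 on the log2 scale. These contrasts were used by the rule, so the counts that follow describe the chosen cells and support nothing beyond that.

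The highest ratios belonged to the machinery of the spindle, its midzone and the chromosomes. Top2a, which untangles sister chromatids, stood at 1080 and 1218 CPM in members and at 3.02 and 4.62 CPM in comparison cells, 357-fold and 264-fold apart. Prc1, which bundles midzone microtubules, stood at 505 and 567 CPM against 1.85 and 2.48. Aspm stood at 229 and 267 CPM against 0.536 and 0.991. In the cells with at least 3 UMIs but a lower share, Top2a stood at 278 and 311 CPM, Prc1 at 118 and 140, and Aspm at 36.9 and 41.7. The gaps between members and comparison cells, in both libraries, follow from how both were chosen. Nusap1, which binds spindle microtubules, was 355-fold and 291-fold higher, and the mitotic kinesins Kif4a and Kif20a were 291-fold and 253-fold, and 234-fold and 123-fold, higher. For Kif23, the cytokinesis motor, and Kif2c, a microtubule-depolymerising kinesin, the dexamethasone comparison cells held 3 UMIs each, so their log2 ratios of 9.30 (7.74 to 11.6) and 9.19 (7.63 to 11.5) are loosely fixed. In the control library they were 7.84 and 7.94. The other genes named among the 14 highest were Pimreg, Cdca3, Cdca2, Sgo2, Ect2 and Ccna2, with mean log2 ratios of both libraries from 7.29 for Ccna2 to 8.56 for Pimreg.

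**Figure D1:**
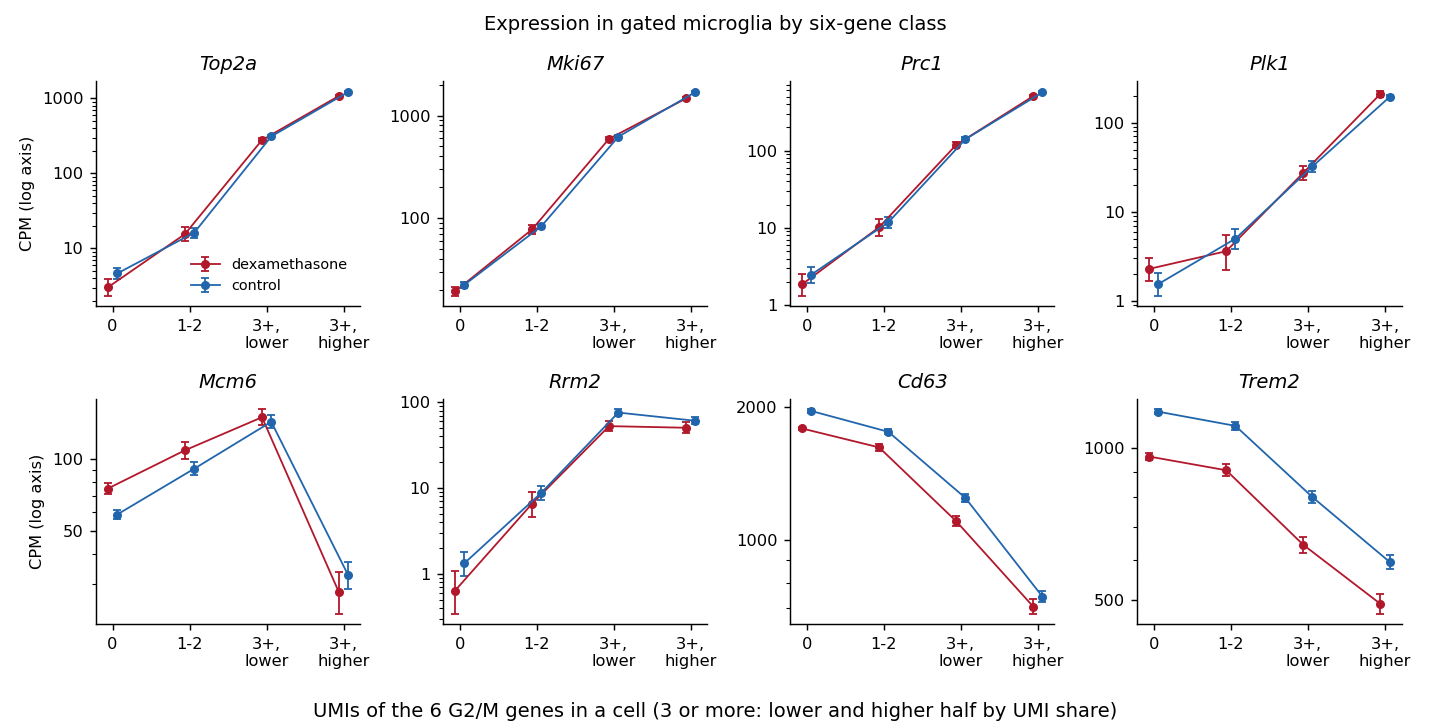
CPM on a log axis of 8 genes in gated microglia with 0, 1 to 2, or at least 3 UMIs of the 6 chosen genes, the last class split at the cut into its lower and higher part (the members). Points are summed cells of 1 library and bars are Poisson intervals. Top2a, Mki67, Prc1 and Plk1 are highest in members, Mcm6 is highest in the lower part and lowest in members, Rrm2 is alike in both parts, and Cd63 and Trem2 are lower at each step.

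The gene lists give the order of these differences by role. A list member was counted when it had at least 20 UMIs, and called when it was at least 1.5-fold apart in the same direction in both libraries, as were 9.24% of 12055 such genes upward and 6.28% downward. Of 114 mitosis genes outside the 6, members had 110 higher and 0 lower. The median log2 ratios were 4.83 and 4.79. All 11 midzone and cytokinesis genes were higher, at medians of 7.87 and 7.10, all 21 spindle genes at 5.67 and 5.40, and all 25 kinetochore and centromere genes at 5.20 and 4.85. Of the 4 mitosis genes that did not reach the call, 3 were higher in members of both libraries, but by less than 1.5-fold. They were Cdc16 at 31.1 and 32.4 CPM against 23.9 and 23.9, Anapc11 at 145 and 137 against 110 and 109, and the heterochromatin protein gene Cbx1 at 77.4 and 81.9 against 55.1 and 59.5. The other was Cdc25a, a phosphatase that acts from G1 into S, at 32.0 and 33.3 CPM against 33.3 and 28.1.

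Among 23 genes of mitotic entry, 22 were higher. The kinase Cdk1 stood at 304 and 274 CPM in members against 5.02 and 4.79 in comparison cells, and its binding partner Cks2 at 306 and 275 against 5.85 and 5.08. Plk1 stood at 209 and 194 CPM against 2.29 and 1.55, and cyclin A2 (Ccna2) at 125 and 129 against 0.585 and 1.12. The kinases that hold Cdk1 back, Wee1 and Pkmyt1, were less far apart, at 39.0 and 37.4 CPM against 13.2 and 9.21, and at 31.7 and 28.6 against 10.05 and 9.11. The transcription factors of the program were present at low levels in members, Foxm1 at 29.4 and 34.3 CPM and Mybl2, which encodes B-Myb, at 9.25 and 9.29. Mybl2 was higher, at 28.4 and 25.6 CPM, in the lower part of the cells with at least 3 UMIs.

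Of 16 genes of the anaphase-promoting complex and the spindle checkpoint, 14 were higher. The checkpoint kinase Bub1 stood at 193 and 208 CPM against 1.12 and 1.95, securin (Pttg1), which restrains separase until anaphase, at 457 and 480 against 9.71 and 15.4, and separase itself (Espl1) at 35.1 and 42.7 against 0.195 and 0.429. Among core subunits, Anapc5 stood at 222 and 210 CPM against 130 and 124, and Cdc27 at 45.7 and 56.9 against 27.1 and 33.9, both called higher, while Cdc16 and Anapc11 were not. Fzr1, the activator that takes over from Cdc20 at mitotic exit, stood at 20.5 and 25.7 CPM against 4.24 and 4.95.

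Kinetochore genes included Cenpe, a motor that carries chromosomes to the metaphase plate, at 353 and 466 CPM against 2.88 and 5.15, and Spc24 of the Ndc80 complex at 404 and 403 against 7.51 and 8.35. Chromatin genes were higher at 17 of 18. Mki67, which coats mitotic chromosomes, stood at 1468 and 1695 CPM against 19.2 and 22.2, Hmgb2 at 2732 and 2590 against 251 and 231, and the condensin subunit Ncapg at 84.4 and 97.6 against 1.22 and 0.925. Tubulins, whose polymers form the spindle, were higher at 8 of 10. Tubb4b stood out among them at 580 and 626 CPM against 19.9 and 23.6, while Tubb5 stood at 2054 and 1782 against 804 and 726.

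**Figure D2:**
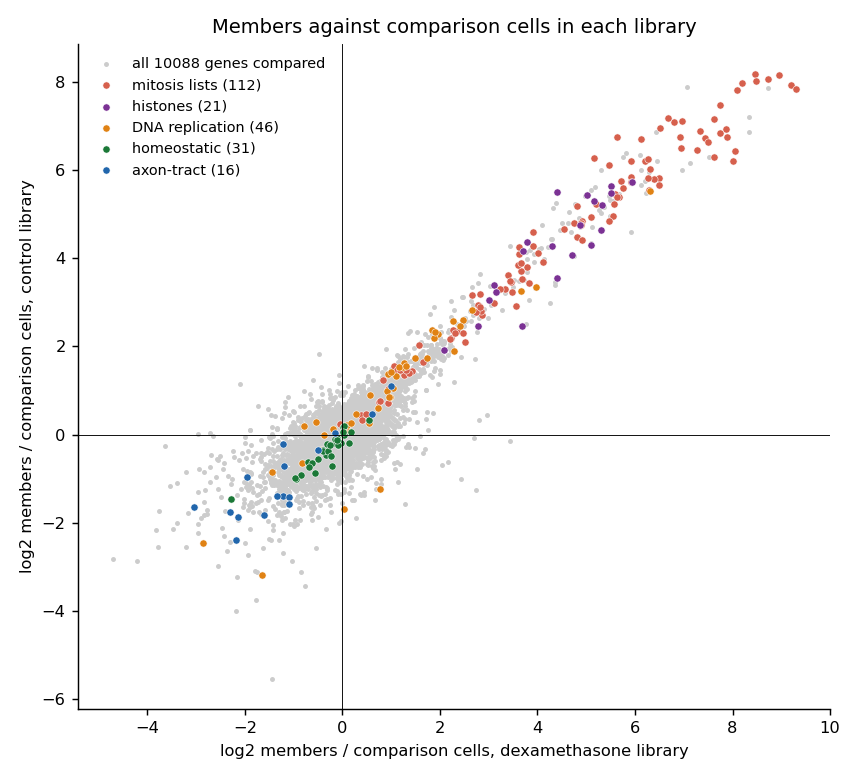
Log2 ratio of members over comparison cells in the dexamethasone library (x) and the control library (y) for 10088 genes, with 5 gene lists coloured and their numbers of genes in brackets. Mitosis and histone genes lie far up the diagonal in both libraries, and homeostatic and axon-tract genes lie near or below 0.

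Replication-dependent histone genes, which are transcribed in S phase, were higher at 25 of 25, with medians of 4.40 and 4.30. They made up 0.443% and 0.469% of the members' UMIs against 0.0309% and 0.0340% in comparison cells. Hist1h2an stood at 1325 and 1052 CPM against 21.8 and 19.7, and the linker histone gene H1f4 at 1183 and 1593 against 133 and 168. Histone genes are near-identical copies whose reads may be shared among them, and most of their transcripts carry no poly(A) tail, so their levels depend on the capture chemistry.

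The DNA replication list was divided, with 26 of 46 genes higher, 4 lower and a median of 0.94 in both libraries. Among the higher genes, the ribonucleotide reductase subunit Rrm2 stood at 50.5 and 60.9 CPM against 0.634 and 1.32. Among the lower genes, the uracil glycosylase gene Ung stood at 4.21 and 4.29 CPM against 30.4 and 23.8, the helicase subunit Mcm6 at 27.8 and 32.7 against 75.2 and 58.6, and the licensing factor Cdt1, with 12 and 7 UMIs in members, at 3.37 and 1 against 10.6 and 9.18. Comparison cells include replicating ones. In 754 comparison cells, those with at least 3 UMIs of 6 replication genes and the higher share of them, Ung stood at 67.1 and 65.5 CPM and Cdt1 at 35.0 and 39.7. Set against comparison cells without any UMI of Mki67, Top2a or the 6 replication genes, the list's median was 2.62 in place of 0.93 (mean of both libraries). That choice removes list genes such as Mcm6 from the comparison cells, so a higher median follows from it in part. Against all comparison cells, the list's median was 1.56 with all cells of at least 3 UMIs as members. With the 25% of highest share it was 0.27.

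Among 26 G1 cyclins, kinases and cell-cycle brakes 7 were higher and 2 lower. The inhibitor gene Cdkn2c (p18), which restrains Cdk4 and Cdk6, had the largest difference of those named, at 145 and 136 CPM against 6.54 and 5.41, with log2 ratios of 4.47 (4.19 to 4.76) and 4.66 (4.41 to 4.90). Of the other inhibitors, Cdkn1b (p27) stood at 107 and 102 CPM against 45.2 and 47.9, and Cdkn1a (p21) at 9.82 and 13.6 against 19.9 and 21.2. Cyclin D1 (Ccnd1) stood at 226 and 249 CPM against 280 and 289, a log2 ratio of -0.31 and -0.21. The MuvB core genes Lin54 and Lin9 were 3.57-fold and 3.77-fold, and 4.03-fold and 3.49-fold, higher, and Gadd45a was lower, at 6.45 and 5.86 CPM against 17.4 and 18.1.

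**Figure D3:**
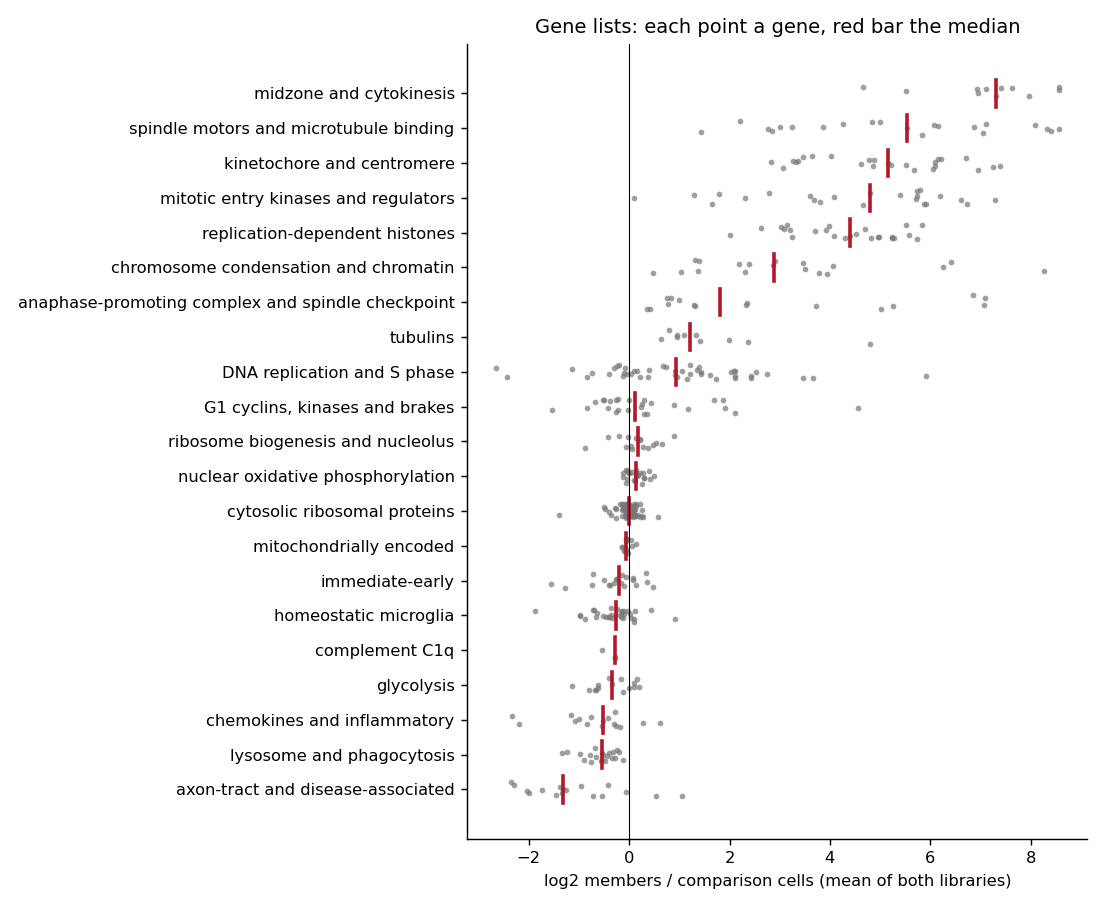
Log2 ratio of members over comparison cells, as the mean of both libraries, for every gene with at least 20 UMIs in 21 lists. Each point is a gene and each red bar the list's median. Mitosis lists and histones lie to the right, ribosomal protein and oxidative phosphorylation lists close to 0, and lysosome and axon-tract lists to the left.

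Genes of axon-tract-associated microglia, a phagocytic state seen around growing fibre tracts, had the lowest median of the microglial lists. Of 17 such genes 11 were lower in members and 1 higher, with medians of -1.21 and -1.40. Osteopontin (Spp1) stood at 80.5 and 84.6 CPM in members against 354 and 309, Gpnmb, a lysosomal glycoprotein gene, at 76.3 and 56.7 against 233 and 203, and Igf1, a growth factor gene, at 257 and 219 against 595 and 580. In members 10 cells held 67.2% and 72.5% of the Spp1 UMIs, and Spp1 was detected in 17.2% and 14.9% of members and in 16.6% and 15.6% of comparison cells. The growth factor gene Csf1, a ligand of Csf1r, stood at 6.17 and 11.7 CPM against 51.1 and 36.8. Cd63 stood at 706 and 743 CPM against 1788 and 1959, and Anxa5 at 9.82 and 9.86 against 44.7 and 51.8. Each of these 6 genes was lower in members of both libraries. The exception was Vim, which encodes the intermediate filament vimentin, at 331 and 329 CPM against 166 and 153. The list summed to 2008 and 1889 CPM in members and to 4315 and 4262 in comparison cells. In the 754 replicating comparison cells described above the sum was 2884 and 2507 CPM, so a lower sum was not particular to members. Among the 14 lowest genes, Aebp1, Atp1b1 and Cd4, were at 0.303-fold and 0.346-fold, 0.348-fold and 0.356-fold, and 0.355-fold and 0.370-fold of the comparison level, and Lpl, a lipase gene, was at 0.257-fold and 0.510-fold.

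Lysosomal genes shared the direction, with 8 of 21 lower and 0 higher, at medians of -0.49 and -0.56. They summed to 11273 and 11812 CPM in members and to 16065 and 17780 in comparison cells. In the replicating comparison cells the sum lay between these, at 13563 and 14574 CPM. Cd68 stood at 171 and 121 CPM against 363 and 361, the receptor gene Axl at 47.7 and 43.1 against 109 and 105, and the cholesterol carrier Npc2 at 911 and 924 against 1652 and 1777. Ctsz and Lgmn did not reach the call, at log2 ratios of -0.32 and -0.32, and -0.35 and -0.45. Chemokine and inflammatory genes were lower at 5 of 16 and higher at 0. Ccl2, which attracts monocytes, stood at 13.7 and 13.9 CPM against 98.4 and 49.2, and Ccl7 at 13.5 and 18.1 against 96.5 and 52.6. In members 10 cells held 85.7% and 79.4% of the Ccl2 UMIs.

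Homeostatic genes were lower at 7 of 32 and higher at 0, with medians of -0.22 and -0.25. They summed to 25691.4 and 29952.2 CPM in members and to 38569.9 and 47133.3 in comparison cells. In the replicating comparison cells the sum lay between these, at 32155.5 and 38329.9 CPM. Trem2, the lipid-sensing receptor gene, stood at 492 and 596 CPM against 964 and 1183, the efferocytosis receptor Mertk at 46.3 and 54.0 against 89.1 and 108, and cystatin C (Cst3) at 12462 and 15545 against 22325 and 29375. Tyrobp, the adaptor of Trem2, stood at 3382 and 3147 CPM against 4490 and 4087. The lineage factors differed less, with Spi1 at 252 and 313 CPM against 248 and 280, Sall1 at 155 and 174 against 203 and 221, and Mef2c at 370 and 387 against 368 and 373. The 3 C1q genes were not called, at medians of -0.28 and -0.33.

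Of 83 cytosolic ribosomal protein genes 0 were higher and 1 lower, and of 25 nuclear genes of oxidative phosphorylation and 13 mitochondrially encoded genes none was called. Of 15 glycolysis genes 2 were lower, with medians of -0.33 and -0.34, and Aldoa stood at 338 and 378 CPM against 548 and 553. Of 16 nucleolar and ribosome biogenesis genes 2 were higher and 1 lower. Nop58 was at 158 and 156 CPM against 87.6 and 82.2, and the growth regulator Myc at 19.1 and 25.1 against 41.8 and 38.9.

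Transcripts of other cell types were present at low levels. Of the 9 erythroid marker genes measured, 5 and 8 had UMIs in members, summing to 179 and 365 CPM against 1352 and 656 CPM in comparison cells, where 10 cells held 86.5% and 41.7% of them. The globin genes Hba-a1, Hba-a2, Hbb and Hbb-bs were among the 14 lowest named genes, with Hba-a1 at 78.8 and 170 CPM against 562 and 308, but with all 1880 cells of at least 3 UMIs taken as members its mean log2 ratio was 1.06 and no longer negative. Neuron markers summed to 56.4 and 62.6 CPM in members against 13.2 and 50.1, and 10 cells held 98.0% of them in the dexamethasone members. The median member carried 0 UMIs of neuron, neural progenitor, granulocyte, lymphocyte, endothelial and choroid plexus markers. The progenitor markers were at 0 for 9 and 7 of 15 genes and the granulocyte markers for 6 and 4 of 9. Border macrophage genes, of which 4 were limited by the gate, summed to 1226 and 1342 CPM against 1579 and 1597. The part of these transcripts in the other results was not tested.

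Members differed among themselves along their histone content. All 940 were ranked on the share of UMIs from replication-dependent histones and split into 3 groups, with medians of 0.0796% and 0.0783% in the lowest (85 and 229 cells), 0.296% and 0.259% in the middle (123 and 190) and 0.909% and 0.972% in the highest (89 and 224). Cdc20 and Ccnb1, which belong to the rule, and securin (Pttg1), which does not, were highest in the lowest group. Cdc20 stood at 409 and 413 CPM in the lowest, 266 and 280 in the middle and 113 and 153 in the highest group. Pttg1 ran 612 and 637, 478 and 468, then 251 and 306 CPM, and Ccnb1 627 and 543, 464 and 393, then 244 and 258. The order of the groups was the same in both libraries for these 3 genes. The 6 genes of the rule together stood at 4671 and 5133 CPM in the lowest and at 3057 and 3439 CPM in the highest group, so the values of Cdc20 and Ccnb1 are a description. Other mitotic genes differed the other way, with Cdk1 at 240 and 250 CPM in the lowest and 375 and 326 in the highest group, and the kinase gene Aurkb at 101 and 78.8 against 201 and 146. The genes named here were chosen after their values were seen.

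Several genes of S phase were highest in the highest group. The DNA replication list summed to 986 and 1036 CPM in the lowest group and to 3395 and 3114 CPM in the highest. In the replicating comparison cells, which were chosen on replication genes, it summed to 3141 and 3282 CPM. Whether the highest group was still in S phase was not tested. Rrm2 stood at 22.04 and 17.9 CPM in the lowest, 27.3 and 51.3 in the middle and 116 and 119 in the highest group, and Pclaf, a Pcna-binding factor, at 58.2 and 63.1, 107 and 145, then 299 and 268. Top2a stood at 757 and 873, 897 and 956, then 1707 and 1842 CPM. Tyms, which makes thymidylate, had no such order in the dexamethasone library, at 41.4, 30.1 and 53.9 CPM from the lowest to the highest group, and stood at 37.2, 42.5 and 58.4 CPM in the control library. Plk1 did not follow this order either, at 220 and 205, 201 and 177, then 211 and 195 CPM, nor did Bub1, Aspm and Ccna2, whose log2 ratios of the lowest over the highest group lay between -0.092 and 0.17. The genes of the 6-gene rule were themselves unequal along this axis, from 1.86 and 1.43 for Cdc20 to 0.13 and 0.16 for Tpx2. The microglial genes P2ry12 and Tmem119 were lower in the lowest group, by log2 ratios of -0.65 and -0.63, and -1.05 and -0.67. Median depth was 12079 and 10603 UMIs in the lowest and 10636 and 10007.5 in the highest group.

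**Figure D4:**
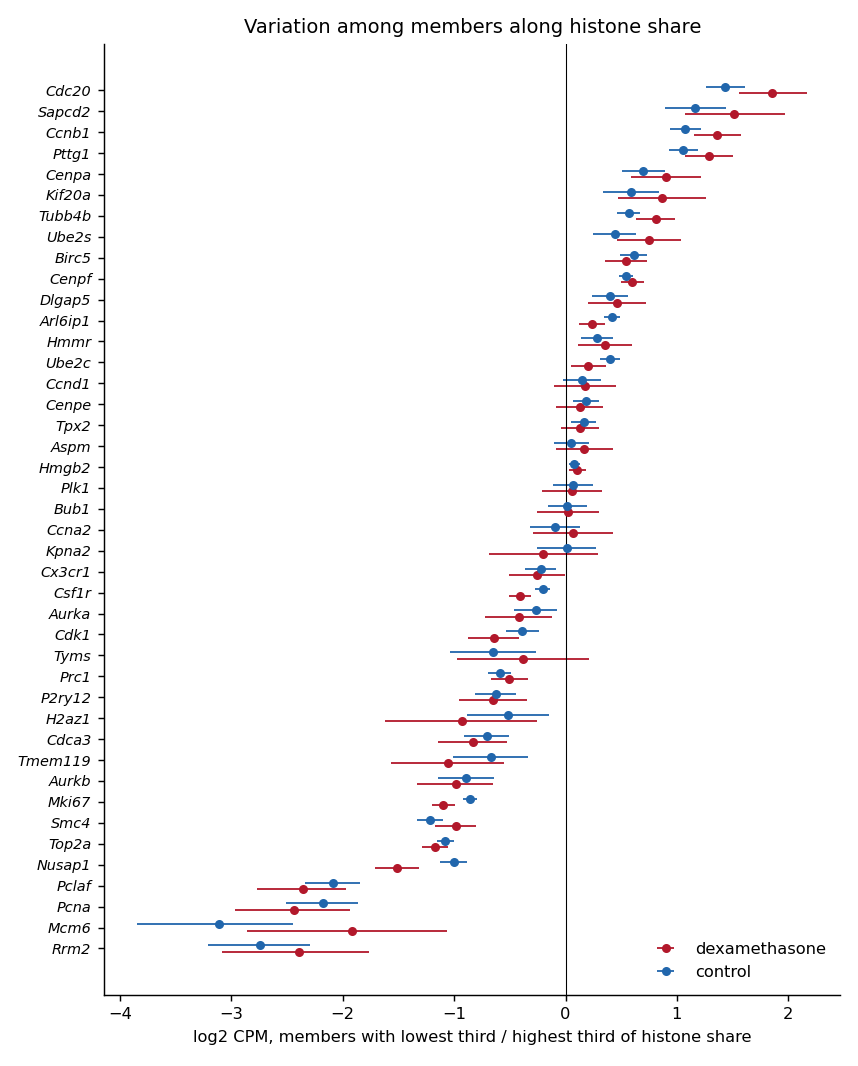
Log2 ratio of CPM in the members with the lowest over those with the highest histone share, for 42 genes in each library, with exact intervals as bars. Cdc20, Sapcd2, Ccnb1 and Pttg1 lie to the right in both libraries, Rrm2, Mcm6, Pcna and Pclaf to the left, and Plk1, Bub1 and Aspm at 0.

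Members were a smaller share of gated microglia in the dexamethasone library, 8.77% (7.84 to 9.77%) against 10.4% (9.63 to 11.2%), a difference of -1.61 percentage points (-2.83 to -0.357). With every cell thinned to 4000 UMIs, which left out 147 and 489 shallower cells, the shares were 6.68% and 7.97% and the difference -1.29 points (-2.42 to -0.137). Cells with at least 3 UMIs of the 6 genes differed by -1.12 points (-2.77 to 0.565), from 18.9% and 20.0%, and by -2.44 points (-3.97 to -0.882) when thinned. If the cells are split within each library in place of over both, the difference in members is -0.56 points. It is -0.63 points with a C1q minimum of 1.2%, and -0.96 points with Cenpf left out of the rule. These shares describe sorted cells and not the tissue, and with 1 library per group they carry no error between animals.

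Among members, 7282 genes had at least 100 UMIs, of which 172 (2.36%) were at least 1.5-fold higher and 192 (2.64%) at least 1.5-fold lower in the dexamethasone library. With cells thinned to 4000 UMIs (212 and 447 members) the counts were 86 and 153. Without cells carrying markers of other cells (168 and 310 members) 109 genes were higher. Both settings leave fewer UMIs, so fewer genes can reach 100 UMIs, and these counts are not shares of the 7282 genes. Among the 7282 genes the median differed by -0.033 on the log2 scale. At a minimum of 20 UMIs, used for the lists, 5.36% of 9933 genes were 1.5-fold higher and 6.01% lower. Of 114 mitosis genes 1 was higher and 2 were lower, and their median was -0.032. In comparison cells, where most of these genes are near 0, the median was -0.15. Cdk1 stood at 304 and 274 CPM, a log2 ratio of 0.15 (0.04 to 0.26), Cenpe at -0.40 (-0.50 to -0.31) and Mki67 at -0.21 (-0.25 to -0.16). The 1 higher gene was Hmgb1, at 89.5 and 58.4 CPM, and the 2 lower ones were Haspin, the histone H3 kinase gene, at 22.2 and 41.6 CPM, and the centromere chaperone gene Hjurp, at 9.54 and 15.6. These 3 were singled out after their values were seen.

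The genes with the highest ratios differed in the comparison cells too. Lsp1, an actin-binding leukocyte protein gene, stood at 68.1 and 7.57 CPM in members, a log2 ratio of 3.17 (2.74 to 3.63), and at 31.3 and 4.59 CPM in comparison cells. F13a1, the A subunit of coagulation factor XIII, stood at 88.3 and 10.9 CPM, a ratio of 3.02 (2.66 to 3.41), against 2.90 in comparison cells. Others among the 10 highest were Rps19l2 at 404 and 109 CPM, Ppial4d at 204 and 75.0, Rpl30 at 834 and 354, Rpl37 at 1176 and 537, Cideb at 61.1 and 25.9 and H2aj at 133 and 61.3. All 6 had a ratio in comparison cells between 1.11 and 1.76. Rps19l2 and Ppial4d resemble other genes in sequence, so their counts are uncertain.

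Ccl4, Fos, Egr1 and Dusp1 had higher ratios in members than in comparison cells, a difference that was not tested. Ccl4, a chemokine gene, stood at 53.0 and 10 CPM, a log2 ratio of 2.41 against 0.88, but a single dexamethasone member held 104 of its 189 UMIs. Immediate-early genes, which respond within minutes to stimuli including cell dissociation, were higher at 6 of 18 and lower at 0. Their median was 0.45 in members and 0.33 in comparison cells, but 0.25 with all cells of at least 3 UMIs taken as members. Fos stood at 112 and 53.4 CPM, a ratio of 1.06 (0.86 to 1.27) against 0.51. Egr1 stood at 46.8 and 12.4 CPM, and at 38.2 and 23.2 CPM in comparison cells. It was found in 20.9% and 9.02% of members, with 49.1% and 41.4% of its UMIs in 10 cells. Dusp1, a phosphatase gene that also responds to glucocorticoids, stood at 38.7 and 12 CPM, and at 25.5 and 11.3 CPM in comparison cells.

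Genes of the glucocorticoid response did not move together. Of 16 measured, 2 were higher and 2 lower, and the list had a median of 0.056. Dusp1 and Zfp36 were the higher ones. The lower ones, Klf9 at 1.40 and 3.29 CPM and Errfi1 at 2.80 and 7.00 CPM, were named after their values were seen. Both rest on few UMIs, so their ratios are loosely fixed. The receptor gene Nr3c1 stood at 45.4 and 41.0 CPM, Fkbp5 at 28.6 and 32.3, Tsc22d3 at 26.1 and 21.1, and Sgk1 at 30.0 and 41.1, a log2 ratio of -0.46 (-0.79 to -0.13).

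Of the lowest ratios, mitochondrially encoded genes were the largest set. They made up 2.98% and 5.63% of the members' UMIs and 3.09% and 6.12% of those of comparison cells. In members 11 of 13 were at least 1.5-fold lower, with a median of -0.997 against -1.05 in comparison cells, and Mt-co3 stood at 3622 and 8321 CPM. Igfbp4, which binds insulin-like growth factors, was lower in the dexamethasone members, at 42.1 and 105 CPM, a ratio of -1.32 (-1.58 to -1.06), against 49.5 and 58.8 CPM and a ratio of -0.25 in comparison cells, a difference between the cell groups that was not tested. Igfbp4 was found in 19.9% and 38.4% of members. In the cells with at least 3 UMIs but a lower share it stood at 58.6 and 110 CPM. In the replicating comparison cells it stood at 68.7 and 127 CPM, so a lower level in the dexamethasone library was not particular to members. The C1q genes went the other way, at a median of 0.52 in members and 0.44 in comparison cells, with C1qa at 5980 and 4167 CPM. C1q was used to choose the cells.

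**Figure D5:**
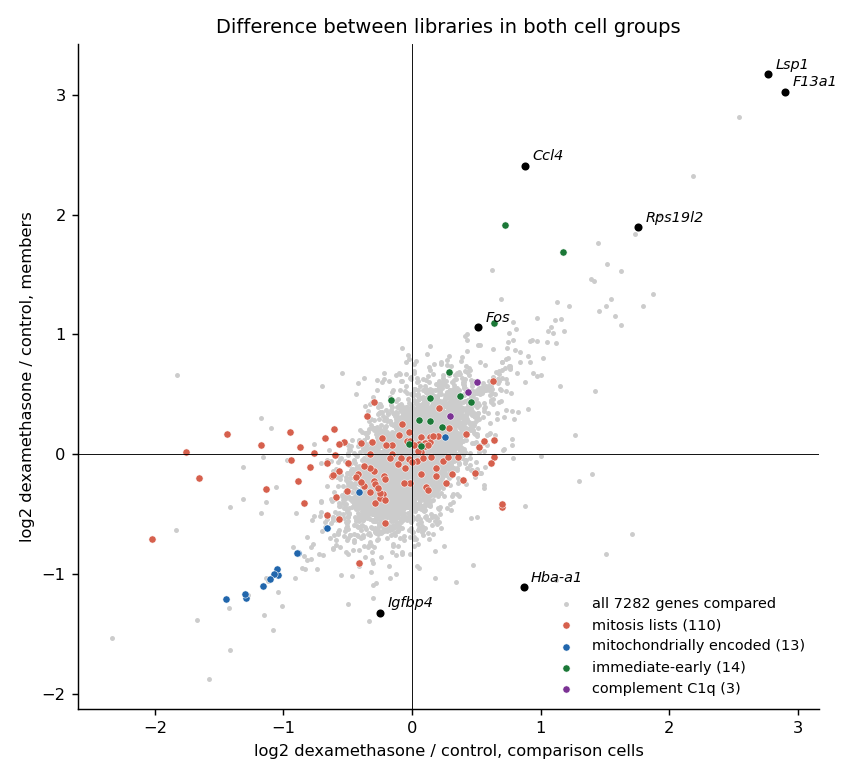
Log2 ratio of the dexamethasone over the control library in comparison cells (x) and in members (y) for 7282 genes, with 4 gene lists coloured and 7 genes named. Mitosis genes spread mainly along the x axis, where their counts in comparison cells are few, mitochondrial genes lie at the lower left, and Igfbp4 and Ccl4 lie off the diagonal.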

How the data were processed

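Single-cell RNA was measured in 1 dexamethasone and 1 control library. The deposited values are raw UMI counts per gene and cell, made by the authors with Cell Ranger 7.0.0 on Rnor_6.0, per the submitters' processing notes. Cells were gated as stated in the report. Counts were summed per library and cell group, scaled to CPM, and compared as log2 ratios with exact conditional binomial intervals, Poisson intervals for CPM and Clopper-Pearson intervals for shares, at 95%. UMIs of a droplet library bound only counting error. With 1 library per group no test was made, and called means past the stated fold. Genes needed 100 UMIs, or 20 within lists, of which 10 of 636 entries were unmatched. The genes named are the 14 highest and 14 lowest by mean log2 ratio between cell groups, the 10 highest and 10 lowest between libraries, up to 4 per list, and the 6 of the rule. Unnamed clone-type genes were set aside, except AY172581.24 and AY172581.9, which remained among the 10 lowest between libraries. In members they stood at 2217 and 5398 CPM and at 575 and 1293 CPM. The members, lists, histone groups and promoter motifs were chosen with earlier results of these data known. No doublet caller was run, and alternatives left out cells over 3 times the median UMIs or carrying other cells' markers. Promoters were matched by symbol to RefSeq windows of GRCr8. The scripts were tested on simulated counts. Python 3.11.15, numpy 2.4.6, scipy 1.17.1, pandas 2.3.3 and matplotlib 3.10.9 were used.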

Additional observations from a re-analysis of the deposited data

Results flagged for a closer look

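Of 135 named genes checked, 9 had a log2 ratio of dexamethasone over control in members opposite in sign to that in comparison cells, with intervals on either side of 0. The difference itself was not tested, and each group is 1 library. The same was not counted over all genes compared, so 9 of 135 is a description only. The growth factor gene Csf1 stood at -0.93 in members and 0.47 in comparison cells, and the lipase gene Lpl at -0.80 and 0.18. The cytokinesis regulator Ect2 stood at 0.19 and -0.95, and Stmn1, which destabilises microtubules, at 0.085 and -0.57. Ect2 held 13 and 37 UMIs in comparison cells, so its ratio there is loosely fixed. The globin genes had values of -1.11 and 0.87 for Hba-a1, -1.04 and 1.12 for Hba-a2, -1.07 and 0.34 for Hbb, and -0.83 and 1.51 for Hbb-bs. In comparison cells 10 cells held 86.5% of the erythroid UMIs of the dexamethasone library. The neuronal tubulin gene Tubb3 stood at 0.66 and -1.82, and 1 dexamethasone member held 72 of the 79 UMIs of that group.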

How the results depend on the processing

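No paired analysis was possible because each group is 1 library, and no replicate could be left out. The difference in the share of members kept its direction under all 9 alternatives that change it, from -1.74 to -0.558 percentage points. Of 76 counts and shares 68 lay within 1.5 times the reported count or within the reported interval, a wide one for the share difference. So did 437 of 477 list medians between cell groups and 395 of 408 between libraries, by their intervals. Thinning to 4000 UMIs gave 86 genes higher in the dexamethasone library in place of 172, and a replication median of 0.366 in place of 0.931. With all cells of at least 3 UMIs, the UMI ratio was 1.40, 60 genes in place of 186 were 2-fold lower, and medians were 1.56 for replication, -0.960 for axon-tract, -0.450 for lysosome and 4.19 for mitosis genes. With the 25% of highest share they were 0.268 for replication and -1.53 for axon-tract genes, and without Cenpf in the rule 0.685 for replication. Comparison cells of at least the 10th percentile of member UMIs gave a UMI ratio of 1.17. Comparison cells without cycling UMIs gave 1.56, with medians of 2.62 for replication, -0.640 for lysosome and 5.22 for mitosis genes. That choice removes genes of the replication and mitosis lists from the comparison cells, so these 2 medians rise in part by the choice. Without cells carrying other cells' markers 109 genes were higher in the dexamethasone library and the mitochondrial median was -0.899. A minimum of 20 UMIs gave 532 higher and 597 lower genes. Signs reversed between cell groups for Stmn2 (-1.48) and Tubb3 (-0.85) with C1q of at least 1.2%, and for Stmn2 (-0.42), Tubb3 (-0.27), Npm1 (-0.023) and Pgk1 (-0.0056) with the 25% of highest share. Thinning reversed Npm1 (-0.017) and the neural progenitor list between libraries (0.099). With all cells of at least 3 UMIs the erythroid list (1.14), Hba-a1 (1.06), Hba-a2 (1.24), Hbb (1.14), Hbb-bs (1.12), Rplp1 (0.012) and Ttr (0.36) reversed. Comparison cells without cycling UMIs reversed Cox8a (0.018), Jun (-0.0035) and Rplp1 (0.0014), and per-cell CPM reversed Cox8a (0.032). Without cells carrying other markers the condensation list between libraries (0.0032), Hba-a2 (0.13) and Ttr (0.0061) reversed. The cause was not tested. Depth limits genes with few UMIs in comparison cells.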
